A study of Mus musculus with 8 samples.

Results

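Umod, Slc12a1, Kcnj1, Slc12a3, Scnn1a, Scnn1b, Scnn1g, Atp1b1 and Fxyd2 carry, regulate or mark the transport of sodium, potassium and chloride in the distal nephron. They were taken by gene symbol: all 9 are present in each library's file among 20245 entries. RNA of whole mouse kidneys (strain C57BL/6) was selected with oligo dT and sequenced in 8 libraries, 2 in each of 4 groups. The PKD_FP kidneys carried autosomal dominant polycystic kidney disease (ADPKD) and were treated with flavopiridol, an inhibitor of cyclin-dependent kinases. The PKD_DMSO kidneys carried the same disease and received the solvent DMSO, the WT_FP kidneys were wild type and treated with flavopiridol, and the WT_DMSO kidneys were wild type with DMSO. Not given in the sources used here are the mutated gene, the dose, how long the drug was given and how old the mice were. No label ties the 2 libraries of a group to separate animals, and the p-values then cover the spread between libraries alone, which may be technical.

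The distal nephron reabsorbs salt in successive segments. The thick ascending limb takes up sodium, potassium and chloride together through the cotransporter of Slc12a1, and the potassium channel of Kcnj1 returns potassium to the lumen so that uptake can go on. The distal convoluted tubule takes up sodium with chloride through the cotransporter of Slc12a3, and the connecting tubule and collecting duct take up sodium through the epithelial sodium channel (ENaC), built from the products of Scnn1a, Scnn1b and Scnn1g. The sodium pump on the blood side drives all of these steps. Atp1b1 encodes its beta subunit and Fxyd2 a small protein that modulates it, and both are also made in the proximal tubule, so they do not mark the distal nephron alone.

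The deposited values were FPKM, read per length of transcript and per library. Their sum ranged from 486060 to 572823 per library, and 12790 to 13813 genes reached 1 FPKM. The number of reads behind each value is unknown. Over all genes, libraries of a group correlated at Pearson's r of 0.964 to 0.975. Markers of the kidney's own segments were present in all 8 libraries. Markers of perirenal fat summed to 465.5 FPKM in WT_FP replicate 2, against 2.53 to 4.61 FPKM in the other WT libraries and 6.74 to 67.2 FPKM in the PKD libraries.

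Levels differed widely between the genes. Fxyd2 was the most abundant in every group by mean, and Scnn1g the least. In both WT_FP and WT_DMSO the order of mean FPKM was Fxyd2, Atp1b1, Umod, Slc12a1, Slc12a3, Kcnj1, Scnn1a, Scnn1b and Scnn1g, and only the neighbours Atp1b1 and Umod overlapped in value. In PKD_DMSO the order differed in that Scnn1a stood above Kcnj1, and no neighbours overlapped. In PKD_FP Umod stood next to Atp1b1 with overlapping values. Along the order Kcnj1, Slc12a3, Scnn1a and Scnn1b neighbours overlapped too, while Scnn1b did not overlap with Scnn1g.

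**Figure D1:**
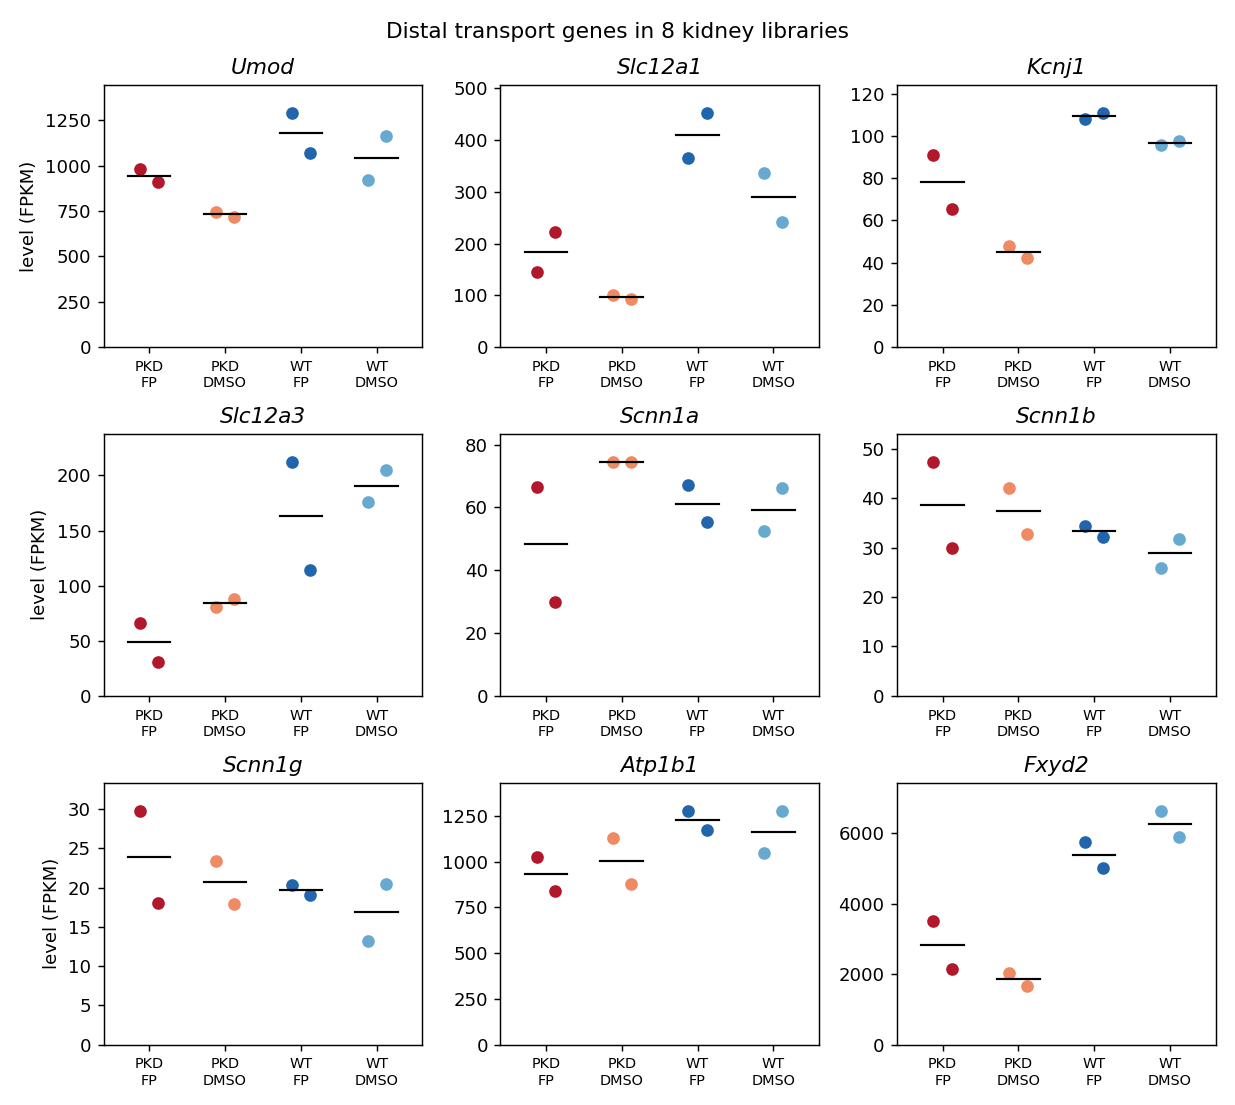
FPKM of the 9 genes in each library, by group, on linear axes that start at 0 and differ between genes. Points are single libraries and lines are group means (n = 2). Fxyd2, Slc12a1, Kcnj1 and Slc12a3 lie lower in all 4 PKD libraries than in all 4 WT libraries, while the 3 ENaC subunits overlap between the genotypes.

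PKD kidneys were first compared with WT kidneys over both treatments together. Slc12a1, Kcnj1, Slc12a3 and Fxyd2 fell in PKD kidneys, with every PKD library below every WT library. Umod fell too, by a smaller amount and with overlapping libraries. Scnn1a, Scnn1b, Scnn1g and Atp1b1 did not pass the test. In all, 0 of the 9 genes rose and 5 fell at an adjusted p under 0.05 (limma on log2(FPKM + 1), Benjamini-Hochberg over the 14391 genes tested). Of all genes tested, 21.7% were called higher, 12.6% lower and 34.3% in either direction. All PKD libraries lay below all WT libraries for 4 of the 9 genes, against 11.7% of all genes, and above them for 0 of 9, against 22% of all genes. The median log2 fold change was -0.41 over the 9 genes and 0.09 over all genes tested. As deposited, 3123 genes were called higher and 1817 lower. With median-of-ratios scaling these were 2353 and 2273, and the median of all genes was -0.01. With 1 library left out, 1762 to 2785 were called higher and 1031 to 1645 lower, the fewest without PKD_DMSO replicate 2. Because whole kidneys were measured, fewer cells of a segment and less RNA per cell cannot be told apart.

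Uromodulin, the product of Umod, is secreted into the urine by the thick ascending limb, where Slc12a1 is also made. The RefSeq sequences before the starts of Umod, Slc12a1 and Slc12a3 are shown because these 3 genes stand for the thick ascending limb and the distal convoluted tubule and were lower in PKD. They are given on the coding strand, 5′ to 3′ (GRCm38.p6), and end before the gene starts of both RefSeq and GENCODE. Capitals mark GTTAAT, a hexamer that was searched in every window.
Umod, chr7:119479283-119479512, minus strand: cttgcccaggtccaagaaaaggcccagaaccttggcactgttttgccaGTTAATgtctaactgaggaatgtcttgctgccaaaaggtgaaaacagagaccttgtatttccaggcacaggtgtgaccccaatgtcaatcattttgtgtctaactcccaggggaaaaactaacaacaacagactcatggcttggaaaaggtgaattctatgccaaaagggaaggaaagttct
Slc12a1, chr2:125152350-125152504, plus strand: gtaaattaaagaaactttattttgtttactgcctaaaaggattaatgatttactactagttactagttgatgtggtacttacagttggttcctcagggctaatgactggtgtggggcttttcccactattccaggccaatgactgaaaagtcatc
Slc12a3, chr8:94328958-94329108, plus strand: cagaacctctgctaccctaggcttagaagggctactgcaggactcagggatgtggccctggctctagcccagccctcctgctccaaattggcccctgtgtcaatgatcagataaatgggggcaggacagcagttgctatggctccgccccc

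GTTAAT was searched on both strands in windows of 250 bases before the transcription start of the RefSeq promoter table, a start that can lie inside the gene span given for that gene. Windows of 7 of the 9 genes were searched, without Fxyd2 and Scnn1a. The Umod window held GTTAAT with its first base 202 bases upstream, and 6.43% of all 32851 windows hold it. The other 6 windows did not hold it. TATAAA and AGAACA were searched in the same windows. Slc12a3 held TATAAA 32 bases upstream, and 12.4% of all windows hold it. Kcnj1 held AGAACA 14 and 190 bases upstream, and 16.1% of all windows hold it. A match is a description and not a site, and a window without one says nothing about a factor.

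Umod (chromosome 7, 119462708 to 119479262) had 980.02 and 909 FPKM in PKD_FP, 748 and 717 in PKD_DMSO, 1291 and 1068 in WT_FP, and 922 and 1164 in WT_DMSO. The PKD_DMSO libraries were the lowest, and PKD_FP replicate 1 lay above WT_DMSO replicate 1. The averaged change was -0.41 ± 0.13 on the log2 scale (SE; 95% interval -0.72 to -0.10; limma, adjusted p = 0.0498), at the threshold. That call ended in 11 of 14 alternative settings, where the adjusted p ranged from 0.0253 to 0.151; leaving out any one library except WT_DMSO replicate 1 ended it, at -0.32 to -0.48.

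Slc12a1 (chromosome 2, 125152510 to 125230002) had 145 and 222 FPKM in PKD_FP, 100.09 and 92.7 in PKD_DMSO, 365 and 452 in WT_FP, and 336 and 242 in WT_DMSO. All 4 PKD libraries were lower than all 4 WT libraries, and the PKD_DMSO pair was lowest. Group means were 183 ± 54.6 FPKM in PKD_FP, 96.4 ± 5.22 in PKD_DMSO, 409 ± 61.1 in WT_FP and 289 ± 66.4 in WT_DMSO (SD, n = 2 each). The averaged log2 fold change was -1.37 ± 0.19 (SE; limma, adjusted p = 0.00294). Kcnj1, whose channel recycles potassium for this cotransporter (chromosome 9, 32372418 to 32399197), had 91.0 and 65.2 FPKM in PKD_FP, 47.8 and 42.2 in PKD_DMSO, 108 and 111 in WT_FP, and 95.8 and 97.7 in WT_DMSO. Its PKD_FP and WT libraries came near each other, with PKD_FP replicate 1 at 91.0 and the lowest WT library at 95.8. The averaged log2 fold change was -0.80 ± 0.13 (limma, adjusted p = 0.00545).

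Slc12a3 (chromosome 8, 94329109 to 94366222), the target of thiazide diuretics, had 66.5 and 31.1 FPKM in PKD_FP, 81.1 and 87.8 in PKD_DMSO, 212 and 114 in WT_FP, and 176 and 205 in WT_DMSO. Its lowest library was PKD_FP replicate 2, and its WT_FP replicate 2 lay nearest to the PKD range. The averaged log2 fold change was -1.46 ± 0.29 (limma, adjusted p = 0.00996). Fxyd2 (chromosome 9, 45399709 to 45410278) had 3505 and 2160 FPKM in PKD_FP, 2033 and 1665 in PKD_DMSO, 5735 and 5005 in WT_FP, and 6629 and 5895 in WT_DMSO. No PKD library reached the lowest WT library. Group means were 2832 ± 951 FPKM in PKD_FP, 1849 ± 260.4 in PKD_DMSO, 5370.0 ± 516 in WT_FP and 6262 ± 519 in WT_DMSO (SD, n = 2 each), and the averaged log2 fold change was -1.36 ± 0.18 (limma, adjusted p = 0.00285). These 4 calls held in all 14 alternative settings.

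The ENaC subunits overlapped between the genotypes. Scnn1a (chromosome 6, 125314271 to 125344943), the alpha subunit, had 66.7 and 30.1 FPKM in PKD_FP, 74.4 and 74.5 in PKD_DMSO, 67.2 and 55.3 in WT_FP, and 52.5 and 66.2 in WT_DMSO. Its averaged log2 change of -0.05 (95% interval -0.64 to 0.54; limma, adjusted p = 0.893) turned to 0.03 when libraries were scaled to equal FPKM sums. Scnn1b (chromosome 7, 121865038 to 121918728) had 47.3 and 29.9 FPKM in PKD_FP, 42.1 and 32.8 in PKD_DMSO, 34.4 and 32.1 in WT_FP, and 26.0 and 31.7 in WT_DMSO. Its averaged log2 change was 0.27 (95% interval -0.14 to 0.68; limma, adjusted p = 0.271), the beta subunit's value being positive but not called.

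Scnn1g (chromosome 7, 121734420 to 121768482), the gamma subunit, had 29.8 and 18.1 FPKM in PKD_FP, 23.4 and 17.9 in PKD_DMSO, 20.3 and 19.1 in WT_FP, and 13.3 and 20.5 in WT_DMSO. The averaged log2 change was 0.26 (95% interval -0.23 to 0.75; limma, adjusted p = 0.366). Atp1b1 (chromosome 1, 164437099 to 164458355), the pump's beta subunit, had 1023 and 837 FPKM in PKD_FP, 1127 and 879.97 in PKD_DMSO, 1277 and 1172 in WT_FP, and 1047 and 1275 in WT_DMSO. Its averaged log2 change was -0.31 (95% interval -0.65 to 0.03; limma, adjusted p = 0.142). Its PKD and WT libraries overlapped over both treatments together and under DMSO, while both PKD_FP libraries lay below both WT_FP libraries. Intervals of this width do not show that these 4 genes were the same in both genotypes.

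Under DMSO alone, PKD_DMSO against WT_DMSO, Fxyd2 (log2 fold change -1.76 ± 0.26; limma, adjusted p = 0.00715), Slc12a1 (-1.56 ± 0.26; 0.0105) and Kcnj1 (-1.09 ± 0.19; 0.0108) fell. These were 3 of 9 genes, and 0 rose; of all genes, 7.52% were called lower, 14.8% higher and 22.3% in either direction. Both PKD_DMSO libraries lay below both WT_DMSO libraries for 5 of 9 (24.5% of all genes) and above them for Scnn1a and Scnn1b, 2 of 9 (41.2% of all genes). Slc12a3 changed by -1.16 ± 0.40 (adjusted p = 0.0823) and Umod by -0.50 ± 0.18 (0.0949), and neither passed. In a fit of only the 4 libraries compared, Slc12a3 passed (adjusted p = 0.0212). Scnn1a, Scnn1b and Scnn1g had values of 0.33, 0.36 and 0.30, none called. The split of all calls was 2130 higher and 1082 lower as deposited, 1544 and 1327 with median-of-ratios scaling, and 3477 and 833 with libraries scaled to equal FPKM sums. With 1 library left out it ranged from 348 to 1889 higher and 148 to 999 lower, the fewest without PKD_DMSO replicate 2, so these shares of all genes hold for the 8 libraries together. Without PKD_DMSO replicate 2 all 3 calls ended, Fxyd2 at -1.62 (adjusted p = 0.0618), Slc12a1 at -1.50 (0.0811) and Kcnj1 at -1.003 (0.0889), and with quantile normalization the Fxyd2 call ended (-1.04; 0.099).

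Under flavopiridol, PKD_FP against WT_FP, Slc12a3 (-1.75 ± 0.40; limma, adjusted p = 0.0362) and Slc12a1 (-1.18 ± 0.26; 0.0329) fell. These were 2 of 9, with 0 higher, against 5.23% of all genes called lower, 8.71% higher and 13.9% in either direction. Both PKD_FP libraries lay below both WT_FP libraries for 6 of 9 (25.2% of all genes) and above them for 0 of 9 (34.6% of all genes). Of all genes, 1254 were called higher and 753 lower as deposited, and 131 to 1155 higher and 56 to 705 lower with 1 library left out, the fewest without PKD_FP replicate 2. Fxyd2 changed by -0.96 ± 0.26 (adjusted p = 0.0533), Kcnj1 by -0.50 (0.121) and Umod by -0.32 (0.292), and these did not pass. Fxyd2 passed with libraries scaled to equal FPKM sums (-0.99, adjusted p = 0.0376). Leaving out any of the 8 libraries ended at least 1 of these 2 calls. Slc12a1 then ranged from -0.87 to -1.48 and Slc12a3 from -1.21 to -2.29. Slc12a3 was called under flavopiridol and not under DMSO, but the test of that difference, the interaction, was not passed (-0.59, adjusted p = 0.759).

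**Figure D2:**
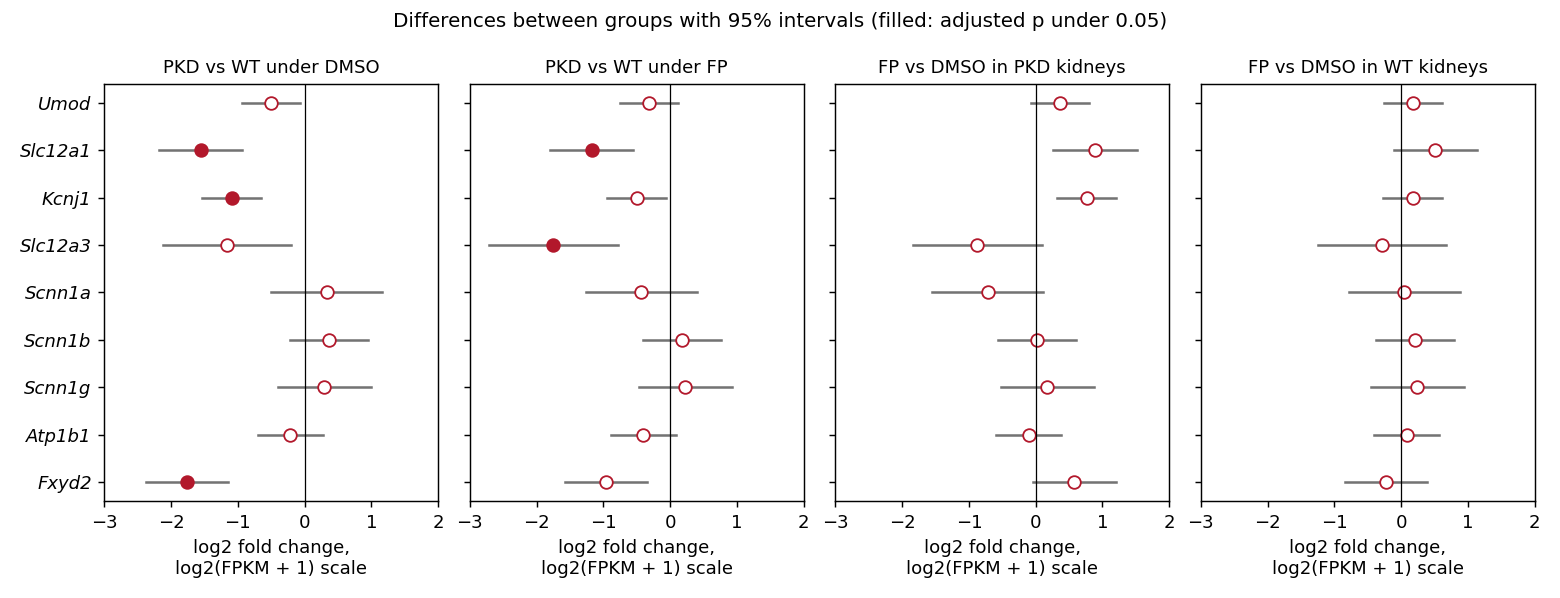
Log2 fold changes of the 9 genes on the log2(FPKM + 1) scale, 1 panel for each of 4 comparisons of 2 against 2 libraries. Lines are 95% intervals from limma and filled points have an adjusted p under 0.05. Slc12a1, Kcnj1 and Fxyd2 are called in PKD_DMSO against WT_DMSO, Slc12a1 and Slc12a3 in PKD_FP against WT_FP, and none with flavopiridol within a genotype.

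Flavopiridol within PKD kidneys asks whether the drug goes with a change of these transcripts in disease. None of the 9 genes passed the test in PKD_FP against PKD_DMSO, where limma called 2 of all 14391 genes (0.0139%), so the test gave almost no calls in any gene; at an unadjusted p under 0.05 there were 2804 genes in all and 2 of these 9. Those were Kcnj1, at 0.77 ± 0.19 (unadjusted p = 0.0046, adjusted p = 0.129), and Slc12a1, at 0.89 ± 0.26 (adjusted p = 0.161). Umod, Slc12a1, Kcnj1 and Fxyd2 had both PKD_FP libraries above both PKD_DMSO libraries, 4 of 9 against 31.4% of all genes. Slc12a3 and Scnn1a had both below, 2 of 9 against 25.2%, with changes of -0.88 ± 0.40 (adjusted p = 0.294) and -0.72 ± 0.35 (0.312). Without PKD_FP replicate 2 they were -0.34 and -0.157, and without PKD_FP replicate 1 they were -1.41 and -1.28. Fxyd2 changed by 0.58 ± 0.26 (0.281). The PKD_DMSO libraries are shared with the PKD_DMSO against WT_DMSO comparison, so these values are not independent of it. Erythroid markers, which stand for blood in the tissue, summed to 948 and 971 FPKM in PKD_FP against 203 and 285 in PKD_DMSO (median log2 difference 1.99, 1 of 5 called higher). Segment markers had medians of 0.64 (thick ascending limb), -0.57 (distal convoluted tubule), 0.755 (principal cell), 0.43 (intercalated cell) and -0.42 (proximal tubule), none called. The part of all these markers in the values of the 9 genes was not tested.

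In WT kidneys flavopiridol gave no call either: limma called 0% of all genes, with 183 at an unadjusted p under 0.05 and 0 of these 9. Slc12a1 changed by 0.51 (95% interval -0.11 to 1.13) and Fxyd2 by -0.22 (-0.84 to 0.39), and every adjusted p of the 9 genes was 1. Both WT_FP libraries lay above both WT_DMSO libraries for Slc12a1, Kcnj1 and Scnn1b, 3 of 9 against 16.6% of all genes, and below them for Fxyd2, 1 of 9 against 5.32%. Fxyd2 was higher in PKD_FP than in PKD_DMSO in both libraries and lower in WT_FP than in WT_DMSO in both, and the interaction was 0.80 ± 0.37 (95% interval -0.07 to 1.67; limma, adjusted p = 0.475). It was 0.36 with quantile normalization, 0.45 without PKD_FP replicate 1 and 1.15 without PKD_FP replicate 2. No gene of the 9 passed the interaction test, and limma called 0 of all genes there, with 1616 at an unadjusted p under 0.05 and 0 of these 9. With 2 libraries a group, an exact permutation test of 1 gene could give no two-sided p below 0.333.

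Ratios of a pair within a library cancel any scaling of that library, and 6 pairs were compared over 4 PKD against 4 WT libraries. Libraries were permuted across both treatments, and each SD over 4 libraries holds differences between the treatments as well as between replicates. Fxyd2 over Atp1b1, the modulator against the subunit of the pump it attaches to, was 3.43 and 2.58 in PKD_FP, 1.80 and 1.89 in PKD_DMSO, 4.49 and 4.27 in WT_FP, and 6.33 and 4.62 in WT_DMSO. No PKD library reached a WT library. The mean log2 ratio was 1.23 ± 0.43 in PKD and 2.28 ± 0.26 in WT (SD, n = 4 each), a difference of -1.05 (exact permutation test, two-sided p = 0.0286, the smallest possible; 0.171 after adjustment over the 6 pairs). Umod over Slc12a1 was 6.78 and 4.10 in PKD_FP, 7.47 and 7.74 in PKD_DMSO, 3.53 and 2.36 in WT_FP, and 2.74 and 4.81 in WT_DMSO. Its mean log2 ratio was 2.66 ± 0.43 in PKD and 1.70 ± 0.45 in WT (exact permutation test, p = 0.0571, adjusted 0.171), with overlap at 4.10 and 4.81.

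Kcnj1 over Slc12a1 differed by 0.57 on the log2 scale (exact permutation test, p = 0.0857, adjusted 0.171). The ENaC ratios differed by 0.33 for Scnn1b over Scnn1a (p = 0.286, adjusted 0.411, exact) and by 0.33 for Scnn1g over Scnn1a (p = 0.343, adjusted 0.411, exact). Slc12a3 over Slc12a1 differed by -0.10 (exact p = 0.829, adjusted 0.829). None passed after adjustment, and the design cannot go below 0.0286 unadjusted. A single pair at that value, as Fxyd2 over Atp1b1 was, has 0.171 after adjustment over the 6 pairs and could not pass. The adjusted values therefore do not decide on that pair.

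**Figure D3:**
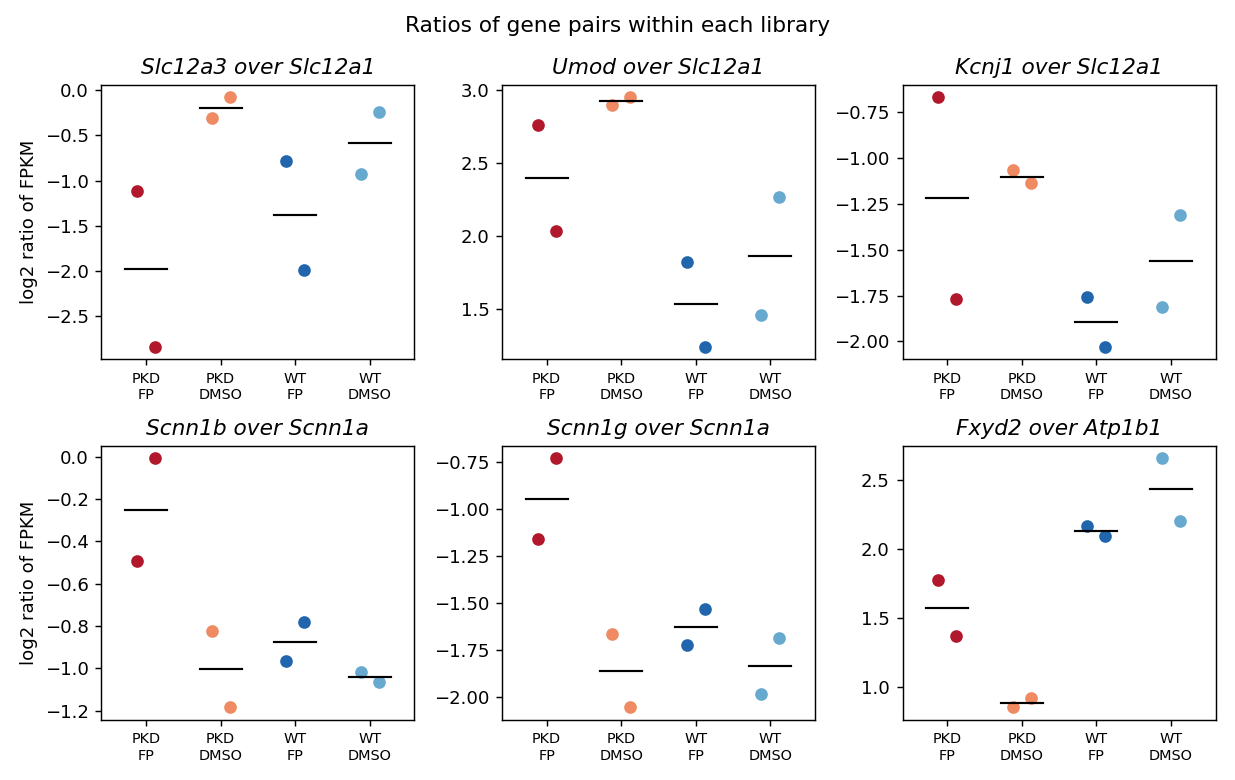
Log2 ratio of FPKM of the 6 gene pairs within each library, by group. Points are single libraries and bars are group means (n = 2). Fxyd2 over Atp1b1 lies lower in all 4 PKD libraries than in all 4 WT libraries, and the other 5 pairs overlap.

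Across the 8 libraries the genes were compared by the root mean square difference of their log2(FPKM + 1) profiles, each centred on its own mean, over 12528 candidate genes. This is a description, and the libraries share genotype and treatment. The 2 genes nearest Slc12a1, whose own profile had an SD of 0.80, were Bckdhb (0.164) and Fa2h (0.177). For Kcnj1 (SD 0.50) these were Aes (0.131) and Ndufa12 (0.133), for Slc12a3 (SD 0.87) Aspa (0.164) and Lrp2 (0.184), for Fxyd2 (SD 0.74) Mtfp1 (0.135) and Ndufc1 (0.141), and for Umod (SD 0.27) Mrps2 (0.071) and Hdhd2 (0.079). Among the 9 themselves, Umod and Atp1b1 differed by 0.201, Kcnj1 and Fxyd2 by 0.338, Slc12a1 and Kcnj1 by 0.438, and Slc12a1 and Slc12a3 by 0.878.

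Genes that work beside these 9 were counted by role, in the averaged comparison. Of 13 partners of the thick ascending limb, 2 rose and 6 fell, against 21.7% of all genes called higher and 12.6% lower, with a median log2 fold change of -0.47 against 0.09 over all genes. Bsnd, the subunit that chloride channels need (-1.03; limma, adjusted p = 0.00361), Cldn10, a claudin of the sodium path between cells (-1.31; 0.00585), Ptger3, a prostaglandin receptor (-1.07; 0.00948), and Slc9a3, a sodium-proton exchanger also of the proximal tubule (-1.57; 0.00209), fell. Cldn14, which limits calcium and magnesium passage, rose by 1.28 (0.00805). It had 1.16 to 3.73 FPKM in PKD libraries and 0.06 to 0.31 in WT libraries, so its fold depends on the 1 FPKM added. It passed the filter of 1 FPKM in 2 or more libraries through the PKD libraries alone, so its call is only a description. Cldn16, a claudin also among the thick ascending limb markers, was the other partner that rose (0.45; limma, adjusted p = 0.0242). Its call was not followed through the alternatives.

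Pump subunits and FXYD proteins other than the members gave 2 higher and 0 lower of 9 tested (median 0.12), near the 21.7% of all genes called higher and their median of 0.09. Fxyd5, another pump modulator, rose by 1.78 (limma, adjusted p = 0.0054). Fxyd6 rose by 1.09 (0.033), a call that ended in 8 of 14 alternatives and held with 1 library left out only for WT_DMSO replicate 1 and PKD_DMSO replicate 1 (otherwise 0.77 to 1.18). In the WNK and SPAK pathway, whose kinases switch both cotransporters on, 2 rose and 2 fell of 9 tested (median 0.03), against 34.3% of all genes called in either direction. Wnk4 fell by 0.996 on the log2 scale (0.00272) and Wnk1 by 0.62 (0.0102), while Oxsr1, a close relative of SPAK, rose by 0.76 (0.00338). Cab39 rose by 0.34 (0.0366), a call that ended in 10 of 14 alternatives and held with 1 library left out only for WT_DMSO replicate 2 (otherwise 0.29 to 0.38).

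Of 17 genes of the aldosterone pathway and ENaC regulation, 1 rose and 5 fell (median -0.22), against the same 34.3% in either direction. Klk1, a kallikrein of the distal tubule, fell by 2.80 (limma, adjusted p = 0.000275); its near-identical family members could share reads. Usp2, a deubiquitinating enzyme, fell by 1.21 (0.00197), Sgk2 by 1.52 (0.0027) and Sgk1, an aldosterone-induced kinase, by 1.01 (0.0143), while Nedd4, a ubiquitin ligase related to the one that removes ENaC, rose by 0.69 (0.00775). Prss8, an ENaC-activating protease, fell by 0.78 (0.0353), a call that ended in 5 of 14 alternatives, among them leaving out WT_DMSO replicate 2, WT_FP replicate 1, PKD_DMSO replicate 2 or PKD_FP replicate 2 (-0.63 to -0.67). Nr3c2, the mineralocorticoid receptor, changed by -0.12 and Nedd4l by -0.26, neither called.

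Of 12 other potassium and chloride transport genes tested, 1 rose and 4 fell (median -0.08), against 34.3% of all genes called in either direction. Slc26a4, a chloride-bicarbonate exchanger of intercalated cells, fell by 1.87 (limma, adjusted p = 0.00488) and Kcnk5, a potassium channel, by 1.13 (0.00196). Cftr, a chloride channel, rose by 0.97 (0.00642). Slc12a7, a potassium-chloride cotransporter, fell by 0.42 (0.049), a call that ended in 10 of 14 alternatives. With 1 library left out, it held only without WT_DMSO replicate 1 or WT_FP replicate 2 (otherwise -0.32 to -0.46). Of 14 transcription factors of the distal nephron, 2 rose and 3 fell (median -0.22), 5 of 14 against that 34.3%. Esrrb fell by 1.04 (0.00729) and Esrrg by 0.83 (0.00915). Grhl2 rose by 0.89 (0.0175) and Tfap2a by 0.86 (0.0499), calls that ended in 4 and 8 of 14 alternatives. Grhl2 ended without WT_DMSO replicate 2, either PKD_DMSO library or PKD_FP replicate 2 (0.77 to 0.90), and Tfap2a held only without WT_FP replicate 2 or PKD_FP replicate 1 (otherwise 0.65 to 1.01). In PKD_FP against PKD_DMSO no gene of these 6 lists was called.

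**Figure D4:**
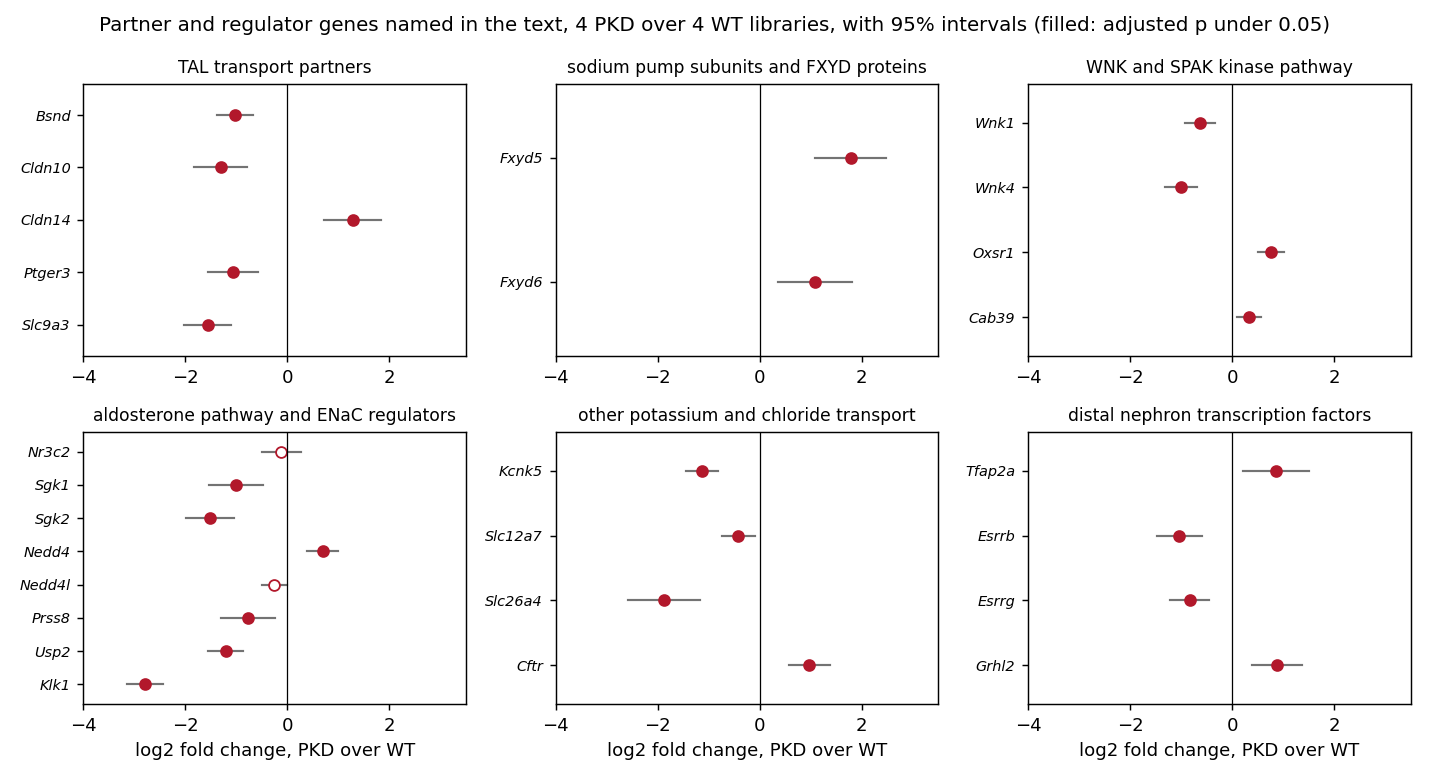
Log2 fold changes of the genes named here from the 6 lists, except Cldn16, for PKD against WT averaged over DMSO and flavopiridol. Each gene has 1 row, with 95% intervals and filled points for adjusted p under 0.05 (limma). Among the thick ascending limb (TAL) partners shown, Cldn14 lies to the right of 0 and the others to the left. Cldn16, a TAL partner also called higher, is not shown. Klk1 has the lowest value shown, -2.80.

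Markers of several segments moved with these genes, and the part of all markers in the results was not tested. The counts below are calls in the averaged comparison, where 21.7% of all genes were called higher and 12.6% lower. Thick ascending limb markers summed to 258 to 661 FPKM in PKD libraries against 1259 to 1692 in WT libraries, with 1 of 9 higher and 6 lower. Distal convoluted tubule markers summed to 38.5 to 108 FPKM against 162 to 343 (1 higher, 4 lower of 7), and intercalated cell markers to 68.8 to 135 against 205 to 239 (0 higher, 5 lower of 7). Principal cell markers summed to 624 to 1405 in PKD and 770 to 2048 in WT libraries (0 higher, 1 lower of 8). These ranges overlap. The median log2 fold change of the principal cell markers was -0.38 averaged, -0.71 under DMSO and -0.04 under flavopiridol (PKD_FP against WT_FP). Under each treatment alone, 0 of the 8 were called. Scnn1a, Scnn1b and Scnn1g had 0.33, 0.36 and 0.30 under DMSO and -0.43, 0.17 and 0.23 under flavopiridol, none called. Proximal tubule markers summed to 1600 to 4620 FPKM in PKD and 18175 to 28871 in WT libraries, with 9 of 9 lower. Markers of tubule injury summed to 11941 to 13533 against 1246 to 1972 FPKM (8 of 8 higher), macrophage markers to 639 to 1311 against 74.7 to 129.5 (8 of 8 higher), and fibroblast markers to 655 to 1826 against 140.5 to 374 (5 of 7 higher). Erythroid markers summed to 203 to 971 FPKM in PKD and 1582 to 1841 in WT libraries (5 of 5 lower), and podocyte markers to 33.9 to 78.8 against 78.3 to 112 (2 of 5 lower). No marker of these lists was at 0 in all libraries. Some genes stand both in a marker list and in a list by role.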

How the data were processed

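Poly(A) RNA of mouse kidneys was measured in 8 libraries. The values deposited by the authors were taken as FPKM: the file headers name no unit, and FPKM was inferred from the deposited values themselves, and neither the counting tool nor the gene lengths are stated. The submitters' processing notes name Bowtie2, DESeq2 and mm10 and state neither a version nor what each was used for. RNA was extracted with TRIzol and libraries were made by BGI, per the labels' protocols. FPKM depends on the gene length used and on how reads at shared sequence were assigned, and it removes library size but not composition.

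From these, log2(FPKM + 1) was computed, keeping genes that reached 1 FPKM in 2 or more libraries (14391 of 20240 used; of 20245 entries, 5 with a repeated symbol or a dash were left out). All 9 genes passed. In R 4.3.3, limma 3.58.1 fitted a model with 4 group means to the 8 libraries (trend and robust moderation), two-sided, with Benjamini-Hochberg adjustment over all genes and a threshold of 0.05. Fold changes are on the log2(FPKM + 1) scale and understate changes of low genes. Pair ratios were tested with exact permutation in SciPy 1.17.1 (Python 3.11.15). The fits were tested on simulated data. Genes named from lists were the up to 6 called with the smallest p, with Cldn16 added, and the 2 nearest genes were named per called member. The members and lists were chosen with earlier results of these data known. Alternatives were no filter, a pseudocount of 0.1, median-of-ratios and quantile scaling, the replicate number as a block, only the 4 libraries compared and each library left out; equal FPKM sums was added after seeing the data. Some genes that the rule named are not reported here, though the counts of the lists include them. Promoter sequences and positions are RefSeq (GRCm38.p6).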

Additional observations from a re-analysis of the deposited data

Results flagged for a closer look

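Fxyd2, the modulator of the sodium pump, was the only one of the 9 genes whose 2 flavopiridol libraries both lay above the DMSO libraries in PKD kidneys and both below them in WT kidneys. The drug effect in PKD minus that in WT was 0.80 on the log2 scale (limma, adjusted p = 0.475 for the interaction), so the difference did not pass the test. It ranged from 0.453 without PKD_FP replicate 1 to 1.152 without PKD_FP replicate 2, and was 0.361 with quantile normalization. Outlier tests were not run, since each group holds 2 libraries.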

How the results depend on the processing

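Read depth is unknown, and 2 libraries a group limit every value. The count of the 9 genes called in PKD against WT averaged over the treatments was 4 or 5 in each of the 14 alternatives. Under DMSO it was 3, 2 with quantile normalization, 4 with only the 4 libraries compared, and 0 to 3 with 1 library left out. Under flavopiridol (PKD_FP against WT_FP) it was 2, but 0 without the low-value filter, 1 with median-of-ratios scaling, 1 with quantile normalization, 0 with only the 4 libraries compared, 3 with equal FPKM sums, and 0 to 1 with 1 library left out. It was 0 in PKD_FP against PKD_DMSO, WT_FP against WT_DMSO and the interaction under every alternative run. Of the lists by role in the averaged comparison, the pump and FXYD list had 2 genes called, against 1 with the replicate block, and 1 to 2 with 1 library left out. The potassium and chloride list had 5, against 3 with the block, and 3 to 6 with 1 library left out. The transcription factor list had 5, and 2 to 5 with 1 library left out. The cause of these changes was not tested, except that fewer libraries leave fewer degrees of freedom.

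No label states a pairing of the libraries by replicate number. Correlations of the replicate differences between groups, over the genes tested, were negative in each pair with WT_DMSO and positive in the others. Swapping the 2 numbers in WT_DMSO would turn all of them positive, so the signs depend on the numbering. As numbered, the correlations were 0.485 for PKD_FP with WT_FP, 0.148 for PKD_DMSO with WT_FP and 0.09 for PKD_DMSO with PKD_FP. With WT_DMSO they were -0.515 for WT_FP, -0.428 for PKD_FP and -0.184 for PKD_DMSO. Replicate differences were thus shared in part between groups, and the source was not tested. The block used the numbers as given, so it could not take out a difference that runs the other way in WT_DMSO. With the replicate number as a block, 4 genes were called in the averaged comparison, 3 under DMSO and 2 under flavopiridol, where Slc12a1 was no longer called (-1.18, adjusted p = 0.0632) and Fxyd2 was (-0.96, 0.0473).

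Directions turned for values that were not called: Umod in PKD_FP against PKD_DMSO with quantile normalization (-0.005) and in the interaction with equal FPKM sums (-0.043) and quantile normalization (-0.25); Scnn1b in PKD_FP against PKD_DMSO with median-of-ratios scaling (-0.049), equal sums (-0.141) and quantile normalization (-0.031); Scnn1a (-0.073) and Atp1b1 (-0.039) in WT_FP against WT_DMSO with median-of-ratios scaling; and Scnn1a averaged with equal sums (0.031). With 1 library left out, Scnn1g under DMSO ranged from -0.001 to 0.592. In PKD_FP against PKD_DMSO, Scnn1b ranged from -0.303 to 0.341, Scnn1g from -0.17 to 0.519 and Atp1b1 from -0.284 to 0.072. In WT_FP against WT_DMSO, Slc12a3 ranged from -0.733 to 0.158, Scnn1a from -0.117 to 0.212, Scnn1g from -0.054 to 0.539 and Atp1b1 from -0.059 to 0.224. In PKD_FP against WT_FP, Scnn1a ranged from -0.996 to 0.128, Scnn1b from -0.148 to 0.496 and Scnn1g from -0.117 to 0.572. In the interaction, Scnn1b ranged from -0.511 to 0.133 and Scnn1g from -0.413 to 0.277. Averaged, Scnn1a ranged from -0.332 to 0.23, and the log2 ratio of Slc12a3 over Slc12a1 differed by -0.435 to 0.484.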
